A study of Mus musculus with 8 samples.

Results

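The 7 genes described here are the Clca genes of the mouse, Clca1, Clca2, Clca3a1, Clca3a2, Clca3b, Clca4a and Clca4b, out of 20660 genes that the array probes named through a RefSeq accession. They were chosen by their family and with the processed signals of all 8 arrays known, so their levels and differences are given as a description, with no test. Each gene had 1 probe and each probe 1 spot per array. RNA came from BMEL, a bipotential liver progenitor cell line from mouse embryos, and was hybridised in 1 colour (Cy3) to 8 Agilent SurePrint G3 mouse arrays of 1 slide. The arrays fell into 3 groups by culture medium, 3 arrays being from NoRX, 3 from CM and 2 from DIFF. The title of the series speaks of medium conditioned by human amniotic epithelial cells, but the labels spell out none of the 3 names and give no composition, so that CM is not identified further here. All groups share the same cell line, which is a single line in culture, and no treatment other than the medium is named. Whether replicates are separate cultures is not stated in the labels. One label numbers the DIFF arrays 1 and 2, while another numbers both as replicate 1, so the spread between arrays may be technical.

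Clca proteins were first described as calcium-activated chloride channels and are named after that. The family is now known for proteins that enter the secretory pathway and cut themselves with a metalloprotease domain of their own, and that act on channels rather than form them. Secreted human CLCA1, for example, raises the amount of the calcium-activated chloride channel TMEM16A, the product of Ano1, at the cell surface. Clca1 is a product of mucus-secreting goblet cells and is induced by interleukin-13 in airway epithelium, Clca2 belongs to stratified epithelia, and Clca4a is known from intestinal epithelium. Several members were renamed. The present Clca1 was once called Clca3 or gob5, the name Clca1 was once used for the present Clca3a1, Clca2 for Clca3a2, and Clca4 for both Clca3b and Clca4a. Members were therefore identified by accession and not by the symbol printed in the array design. The probes were A_51_P422751 for Clca1, A_51_P131119 for Clca2, A_55_P1982291 for Clca3a1, A_51_P265806 for Clca3a2, A_55_P2158176 for Clca3b, A_55_P1982284 for Clca4a and A_52_P95161 for Clca4b. Probe sequences were not used here, and whether a probe also binds RNA of a close relative was not tested.

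The 7 genes lie together on chromosome 3. In the order of the RefSeq table of assembly GRCm38.p6 they follow each other as Clca3a1, Clca3a2, Clca3b, Clca4b, Clca4a, Clca1 and Clca2, with the pseudogene Clca4c-ps between Clca3b and Clca4b. RefSeq promoter windows of 3 members, Clca2, Clca3a1 and Clca4b, were used. Printed below are the 250 bases before the start of Clca3a1, shown because this gene had a pattern across media opposite to that of Clca4b, with which its window is compared in letters. The window lies on the minus strand of GRCm38.p6 at chr3:144760978-144761227 and runs 5′ to 3′ toward the start, with no part marked in capitals.
Clca3a1: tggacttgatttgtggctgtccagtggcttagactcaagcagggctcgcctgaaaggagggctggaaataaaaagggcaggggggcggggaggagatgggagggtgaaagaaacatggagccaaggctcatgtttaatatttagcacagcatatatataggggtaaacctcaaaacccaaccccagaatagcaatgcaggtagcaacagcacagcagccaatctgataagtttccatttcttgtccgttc
Its G and C content was 48.8%, against 33.2% in the Clca4b window and 52.8% in the Clca2 window.

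Both strands of the 3 windows were searched for 4 motifs. A TATA box motif (TATAAA, in 12.4% of 32851 RefSeq windows of the same length) occurred at 2 places in the Clca4b window, 166 and 119 bases before the start, and in neither of the other windows. Both matches read TTTATA toward the start and so lie on the opposite strand. The letters TATATATA, which this motif does not match, stood in the Clca4b and the Clca3a1 windows alike. The letters of an AP-1 motif (TGANTCA, in 6.75%), of the motif searched for STAT6 (TTC and GAA with 4 bases between them, in 5.85%) and of that for the glucocorticoid receptor (ACANNNTGT, in 5.84%) were in none of the 3. A match describes the letters only, and no match says nothing of the factor.

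The arrays were similar in brightness, with 50.8% to 53.5% of 59305 spots well above background on 7 arrays and 46.4% on the second DIFF array. That array also had 1159 spots whose local background was uneven, where the other arrays had 3 to 90, but none was a Clca spot. No Clca spot was marked as an outlier or saturated on any array. The arrays stand in 2 rows of the slide, with the NoRX arrays and the first CM array in row 1 and the other CM arrays and both DIFF arrays in row 2. NoRX and DIFF therefore share no row. All 10 liver progenitor markers, among them Alb, Hnf4a and Krt19, were well above background on all 8 arrays. The summed level of these 10 was 1926 to 2047 times the array's 75th percentile signal in NoRX, 1468 to 1578 times in CM and 1345 to 1661 times in DIFF. The sum mostly follows Krt18, Krt19 and Krt8, at log2 levels of 9.68, 9.22 and 8.73 in NoRX. The 10 did not move together. By limma, 4 rose and 5 fell in CM against NoRX, where 27.7% of all tested genes rose and 26.6% fell. In DIFF against NoRX 2 rose and 7 fell, where 15.3% rose and 28.6% fell. That lean toward falls depends on single DIFF arrays. Of all tested probes that rose or fell in DIFF against NoRX, 33.7% rose, but 21.3% without the first DIFF array and 51.7% without the second. Alb rose 9.74-fold in CM and 473-fold in DIFF. In bulk RNA, fewer cells of a type and less RNA per cell cannot be told apart.

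**Figure D1:**
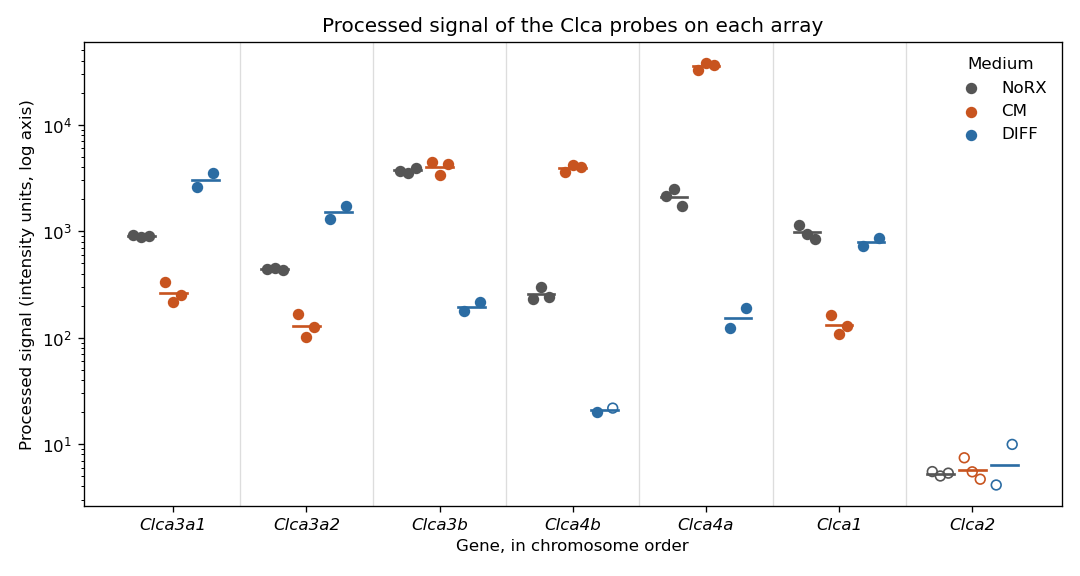
Processed signal (intensity, log axis) of each Clca probe on each of the 8 arrays, coloured by medium, with genes in chromosome order, bars at the geometric mean and open circles where a spot was not well above background. Clca4a and Clca4b were brightest in CM and dimmest in DIFF, Clca3a1 and Clca3a2 were brightest in DIFF and dimmest in CM, and Clca2 was above background nowhere.

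The 6 measured genes showed 4 patterns across the media, and neighbours within the cluster went opposite ways. Clca4a and Clca4b were high in CM and low in DIFF. Clca3a1 and Clca3a2 were low in CM and high in DIFF. Clca3b was at like levels in NoRX and CM and low in DIFF, and Clca1 was far lower in CM than in both other media. Clca2 had no spot well above background. Signals below are Feature Extraction processed signals on a linear scale, and differences are log2 differences after each array was set to its 75th percentile, with the standard error of a limma fit over all 8 arrays.

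Clca4a, known from intestinal epithelium, had processed signals of 2140, 2507 and 1713 on the NoRX arrays, 32754, 37626 and 36446 on the CM arrays and 123 and 190 on the DIFF arrays. The 3 groups did not overlap, and all CM arrays lay far above the rest. The log2 level relative to the 75th percentile was 1.76 ± 0.24 (SD, n = 3) in NoRX, 5.69 ± 0.13 (SD, n = 3) in CM and -2.22 ± 0.19 (SD, n = 2) in DIFF. CM exceeded NoRX by 3.93 ± 0.12 (SE), which is 15.3-fold. DIFF lay 15.8-fold below NoRX, a log2 difference of -3.98 ± 0.14 (SE). The 2 folds were of nearly the same size in opposite directions. Between CM and DIFF the difference was -7.91 ± 0.14 (SE), 240-fold, the largest difference toward lower DIFF levels among 15722 probes measured in both media. In these rankings, measured means well above background on every array of both media, so genes that fell to background are left out. Lypd3, for example, was at background in DIFF and at least 525-fold lower there than in CM. Within slide row 2, which holds 2 CM and both DIFF arrays, the fold was 250. With another background correction (normexp with an offset of 50) the DIFF difference was -3.24 against NoRX and -7.16 against CM.

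Clca4b, next to Clca4a on the chromosome and its close relative, followed the same order at its own probe. Its processed signals were 233, 302 and 239 in NoRX, 3620, 4196 and 4020 in CM and 20.2 and 21.8 in DIFF. The groups did not overlap, and the DIFF spots lay near the floor of the measurement. Of the DIFF spots, only that of the first array was well above background. The CM difference from NoRX was 3.79 ± 0.13 (SE), 13.8-fold, and the DIFF difference from NoRX was -3.81 ± 0.14 (SE), 14.0-fold. DIFF lay 194-fold below CM, a log2 difference of -7.60 ± 0.14 (SE). With the normexp correction the DIFF differences shrank to -1.48 against NoRX and -4.96 against CM, so that their size depends on how signals near background are treated.

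Both Clca4 probes were brighter in CM than in NoRX within row 1 and dimmer in DIFF than in CM within row 2. NoRX and DIFF share no row, so their order cannot be seen within a row. The first CM array, which shares row 1 with NoRX, was 14.1-fold above the NoRX mean for Clca4a and 12.8-fold for Clca4b. The other CM arrays, in row 2, were 15.9-fold and 14.4-fold above it. Set to the NoRX mean, the log2 profiles of the 2 genes differed by between -0.43 and 0.17 on any array, with the widest gap on the first DIFF array. Whether RNA of 1 gene adds to the signal of the other probe was not tested.

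**Figure D2:**
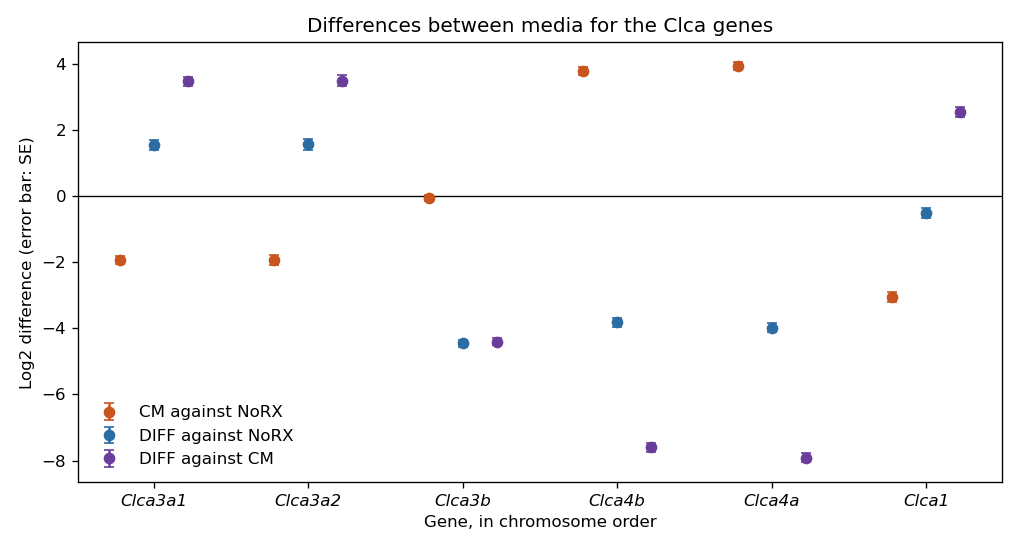
Log2 differences between media for the 6 Clca genes with measured signal, with genes in chromosome order and error bars of 1 standard error of the limma fit over all 8 arrays. CM against NoRX ranged from -3.05 for Clca1 to 3.93 for Clca4a, and DIFF against CM from -7.91 for Clca4a to 3.50 for Clca3a2.

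Clca3a1 and Clca3a2 showed the reverse order, lowest in CM and highest in DIFF. Clca3a1, the gene first named Clca1 in the mouse, had processed signals of 921, 875 and 897 in NoRX, 330, 215 and 253 in CM and 2623 and 3490 in DIFF. The groups did not overlap. Its log2 level was 0.53 ± 0.06 (SD, n = 3) in NoRX, -1.40 ± 0.30 (SD, n = 3) in CM and 2.09 ± 0.04 (SD, n = 2) in DIFF. CM was 3.81-fold lower than NoRX, a log2 difference of -1.93 ± 0.13 (SE), and DIFF was 2.93-fold higher than NoRX, 1.55 ± 0.14 (SE). The CM arrays had the widest spread, because the first of them was brighter than the other 2. DIFF exceeded CM 11.2-fold, 3.48 ± 0.14 (SE).

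Clca3a2, the gene once called Clca2, gave processed signals of 437, 454 and 428 in NoRX, 166, 101 and 127 in CM and 1305 and 1737 in DIFF. Again all CM arrays were below and all DIFF arrays above the NoRX arrays. CM was 3.81-fold lower than NoRX, -1.93 ± 0.15 (SE), and DIFF 2.98-fold higher, 1.57 ± 0.16 (SE). DIFF exceeded CM 11.3-fold, 3.50 ± 0.16 (SE), or by 2.92 with normexp. After each was set to its NoRX mean, the profiles of Clca3a1 and Clca3a2 differed by at most 0.08 on the log2 scale on any of the 8 arrays. By this measure they were the most alike of the pairs compared, and nearer than Clca4a and Clca4b. Signal shared between these 2 probes would give the same picture, and it was not tested.

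The first CM array differed from the other 2 in the genes that were low in CM. It was 3.01-fold below the NoRX mean for Clca3a1 and 2.93-fold below for Clca3a2, while the other CM arrays were 4.28-fold and 4.33-fold below. With the slide row as a block, the DIFF difference from NoRX was larger for both, at 2.06 for Clca3a1 and 2.14 for Clca3a2. Row and CM array stand together here, since row 1 holds only 1 CM array. Within row 2, DIFF exceeded CM 12.6-fold for Clca3a1 and 12.9-fold for Clca3a2.

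Clca1, the goblet cell gene, had processed signals of 1154, 951 and 845 in NoRX, 164, 107 and 128 in CM and 726 and 863 in DIFF. CM stood apart below both other media. Its log2 level was 0.65 ± 0.17 (SD, n = 3) in NoRX, -2.40 ± 0.29 (SD, n = 3) in CM and 0.15 ± 0.08 (SD, n = 2) in DIFF. CM was 8.27-fold lower than NoRX, -3.05 ± 0.14 (SE), the 9th largest difference toward lower CM levels among 16453 probes measured in both media. It was 6.57-fold lower on the first CM array, within row 1, and 9.28-fold lower on the other 2. DIFF lay 1.42-fold below NoRX, -0.50 ± 0.16 (SE), with no overlap after scaling to the 75th percentile, although the unscaled signals did overlap. With the slide row as a block that small difference was -0.0048. NoRX and DIFF share no row, so this value rests on the first CM array, the only CM array in row 1. DIFF exceeded CM 5.84-fold, 2.55 ± 0.16 (SE), and 6.55-fold within row 2.

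Clca3b, first known from smooth muscle, was the member whose CM and NoRX levels overlapped. Its processed signals were 3715, 3552 and 3926 in NoRX, 4451, 3389 and 4305 in CM and 179 and 214 in DIFF. Both DIFF arrays lay far below the other 6. The log2 difference of CM from NoRX was -0.04 ± 0.10 (SE), and it was 0.11 for the first CM array and -0.12 for the other 2. DIFF was 21.9-fold lower than NoRX, -4.45 ± 0.11 (SE), the 10th largest difference toward lower DIFF levels among 15861 probes measured in both media. Against CM it was 21.2-fold lower, -4.41 ± 0.11 (SE), and 20.1-fold lower within row 2. With normexp these differences were -3.83 and -3.79.

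Clca2, a gene of stratified epithelia and once called Clca5, was not well above background on any of the 8 arrays. Its processed signals were 5.02 to 5.52 in NoRX, 4.68 to 7.44 in CM and 4.13 and 9.94 in DIFF. The lowest signal of any spot well above background was 18.9 to 43.2, depending on the array. No order of the media can be read for Clca2, and it was not among the tested probes.

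**Figure D3:**
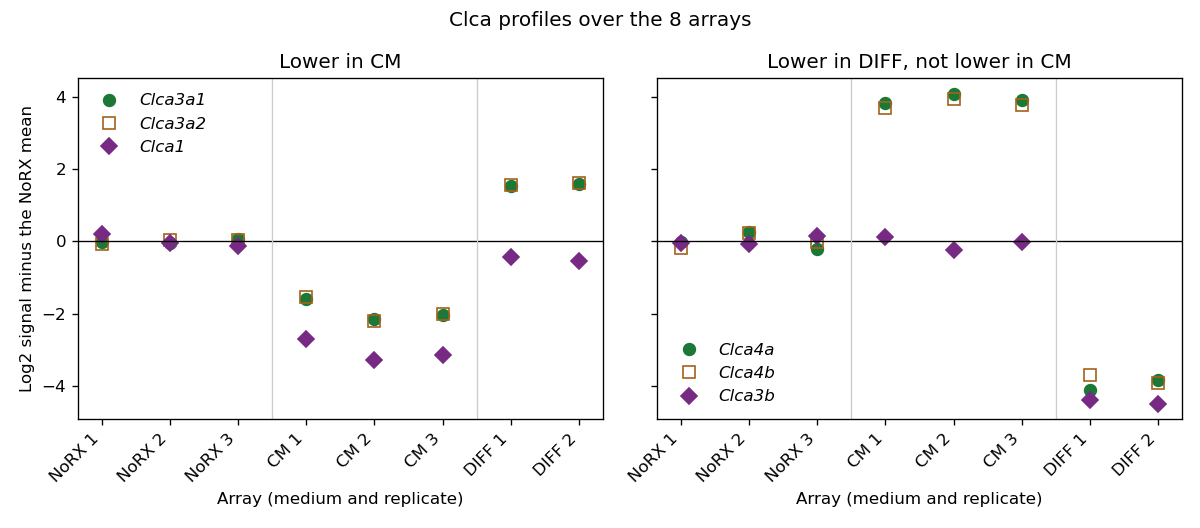
Log2 level of each measured Clca gene on each array relative to the gene's own NoRX mean, with arrays in the order of medium and replicate. The points of Clca3a1 and Clca3a2 lie within 0.08 of each other on every array, those of Clca4a and Clca4b lie within 0.43, and Clca3b lies apart from the Clca4 points in CM.

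Counted over the 6 genes with a tested probe, CM and NoRX did not overlap in 5, as in 71.0% of all tested probes. In 2 of these CM was higher, against 35.4% of all tested probes, and in 3 it was lower, against 35.5%. DIFF and NoRX overlapped in none, where 58.1% of all tested probes were without overlap, with DIFF higher in 2 (20.7% of all tested probes) and lower in 4 (37.4%). DIFF and CM also overlapped in none, where 69.4% of all tested probes were without overlap, with DIFF higher in 3 (28.5%) and lower in 3 (40.9%). The genes were chosen with these signals known, so nothing is read from these counts or from the sizes that follow. The nearly alike Clca3a1 and Clca3a2, and likewise Clca4a and Clca4b, enter as separate genes. The median size over the 6 genes was 2.49 between CM and NoRX, 2.69 between DIFF and NoRX and 3.95 between DIFF and CM, where the median size over all tested probes was 0.32, 0.28 and 0.42. At least a 2-fold difference was seen in 5, 5 and 6 of the 6 genes, and in 12.6%, 13.9% and 21.8% of all tested probes. The comparisons share arrays, so these values are not independent of each other. Direction was mixed, and the signed medians of the 6 genes (-0.99, -2.16 and -0.93) describe no single member. The signed medians of all tested probes were 0.00, -0.10 and -0.10.

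**Figure D4:**
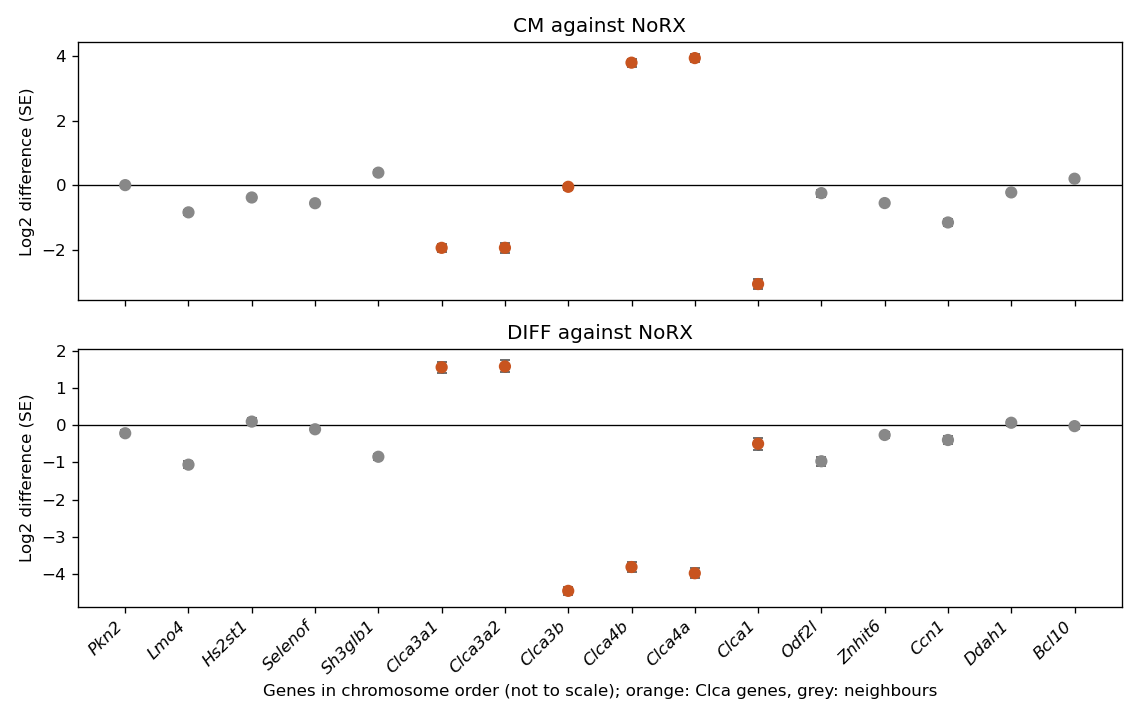
Log2 differences of CM and of DIFF from NoRX for the measured Clca genes and the 5 tested genes on each side of the cluster, placed in gene order and not to scale. The 10 flanking genes stay between -1.15 and 0.39 in both comparisons, while the Clca genes reach from -4.45 to 3.93.

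The tested genes beside the cluster spanned a narrower range of differences than the Clca genes. Nothing is read from this, since the Clca genes were chosen with these signals known. The 5 tested genes on each side were Sh3glb1, Selenof, Hs2st1, Lmo4 and Pkn2 before it and Odf2l, Znhit6, Ccn1, Ddah1 and Bcl10 after it. In CM against NoRX 2 of these 10 rose and 6 fell by limma with Benjamini-Hochberg adjustment over all tested probes, where 27.0% of all probes rose and 26.9% fell. The range ran from -1.15 for Ccn1, a secreted matrix protein (adjusted p = 8.83e-06), to 0.39 for Sh3glb1 (adjusted p = 0.000698). In DIFF against NoRX none rose and 6 fell, where 14.3% of all probes rose and 28.1% fell, and the widest was Lmo4 at -1.06 (adjusted p = 5.08e-06). Of these 6, Pkn2, Znhit6 and Ccn1 lost their calls with the slide row as a block (adjusted p = 0.405, 0.492 and 0.77), with median centring and with array weights. In CM the small differences of Bcl10 and Ddah1 lost their calls with the row block (adjusted p = 0.187 and 0.276). With each array centred on its median in place of the 75th percentile, the median difference of all probes moved from -0.10 to 0.07 in DIFF against NoRX and from -0.10 to 0.11 in DIFF against CM. Higher calls then made up 54.7% and 59.2% of all calls, in place of 33.7% and 41.5%, while each Clca gene kept the sign of its difference. In CM none of the 10 differed as far as any measured Clca gene but Clca3b, and in DIFF none as far as any but Clca1. Clca4a and Clca4b were high in CM between Clca3b, which overlapped NoRX, and Clca1, which was low.

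For each measured Clca gene, the genes with the most similar profile were ranked by Pearson's r over the 8 arrays among 13999 genes. With 3 groups on 8 arrays such an r mainly follows the 3 group levels, ignores their size and is given with no p. Clca4b was nearest to Ptprr (r = 0.999), which encodes a tyrosine phosphatase, with a CM difference from NoRX of 2.11 and a DIFF difference of -2.22. Cd5, Cyth4, Pdlim1 and Itga7 followed. Clca4a was nearest to Snapc3 (r = 0.999), whose differences were only 0.46 and -0.51, and then to Abcb9, a lysosomal peptide transporter, at 2.45 and -2.72. Itga7, Ptprr and Cd5 were in the first 5 of both Clca4 genes. Clca3a1 and Clca3a2 had Sgo1, Lhfp, Cmss1 and Lockd in common among their first 5. Of these Sgo1, which protects the cohesion of sister chromatids, came first for both (r = 0.998 and 0.997), with a CM difference of -1.20 and a DIFF difference of 0.83. Kyat3 for Clca3a1 and Ccnb2, a mitotic cyclin, for Clca3a2 completed the lists. Clca3b was nearest to Il11, a cytokine of the interleukin-6 family (r = 0.998), at -0.01 in CM and -1.77 in DIFF. Pate14, Rad51b, Omp and Csf2 came next, and of these Rad51b was at -3.03 in DIFF. Clca1 was nearest to Atr, a kinase of the DNA damage response (r = 0.998), at -0.97 in CM and -0.20 in DIFF. Rbm34, Prx, Fes and Telo2 followed, and the tyrosine kinase gene Fes came nearest in size at -2.88 and -0.68.

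The channel gene Ano1 was well above background on all arrays. Ano1 fell in CM by 1.19 ± 0.09 (SE) on the log2 scale, 2.28-fold, by limma (adjusted p = 1.58e-06). In DIFF it fell by 0.54 ± 0.10 (SE) (adjusted p = 0.0011), a call lost with the slide row as a block (adjusted p = 0.0555). Of 13 calcium-activated chloride channels listed, 11 had a probe and 6 were tested. In CM 2 of the 6 rose and 3 fell, and in DIFF against NoRX 2 rose and 4 fell. In the same fits 27.7% of all tested genes rose and 26.6% fell in CM, and 15.3% rose and 28.6% fell in DIFF. Ano9 rose 7.76-fold in CM, 2.96 ± 0.10 (SE) (adjusted p = 1.29e-08), and 3.87-fold in DIFF (adjusted p = 2.5e-07). The median difference of the 6 was -0.14 in CM and -0.36 in DIFF.

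Other chloride channels and transporters were mixed as well. Of 22 other chloride channels tested, 5 rose and 9 fell in CM, and 1 rose and 10 fell in DIFF against NoRX, with medians of -0.18 and -0.18. Ttyh1, of a family described as volume-regulated anion channels, was 8.24-fold lower in DIFF, a log2 difference of -3.04 (adjusted p = 2.43e-08 by limma) that was -1.62 with normexp. Of 17 chloride-linked transporters tested, 6 rose and 8 fell in CM, and 4 rose and 6 fell in DIFF, with medians of -0.25 and 0.04. Both lists stand beside 27.7% of all tested genes that rose and 26.6% that fell in CM, and 15.3% and 28.6% in DIFF. Slc26a2, a sulphate and anion exchanger, fell 10.7-fold in CM (adjusted p = 2e-09), with no call in DIFF (0.04, adjusted p = 0.767). The potassium channel subunit gene Kcne3 was at least 7.88-fold lower in CM (adjusted p = 3.31e-07), where it was not well above background, and 4.29-fold higher in DIFF (adjusted p = 6.54e-05). Its order across the media was thus that of Clca3a1 and Clca3a2. A bound of this kind sets the brighter group against the lowest signal well above background on the dimmer arrays.

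Genes of goblet cells and mucus moved both ways. Of 20 goblet cell and mucus genes tested, 6 rose and 7 fell in CM, and 3 rose and 9 fell in DIFF against NoRX, with medians of -0.06 and -0.24, beside the same 27.7% and 26.6% of all tested genes in CM and 15.3% and 28.6% in DIFF. Muc13, a membrane mucin, rose 7.93-fold in CM (adjusted p = 8.12e-09 by limma), while Bcas1 fell 2.61-fold (adjusted p = 2.86e-07) and the gel-forming mucin Muc5ac 2.33-fold (adjusted p = 1.34e-06). In DIFF the trefoil factor Tff3 rose 47.2-fold (adjusted p = 6.2e-10), and Zg16, a lectin of goblet cell granules, was at least 33.1-fold higher (adjusted p = 3.17e-08). The membrane mucin Muc4 rose 2.29-fold in CM and fell 5.35-fold in DIFF (adjusted p = 1.65e-06 and 1.75e-08), the order seen in Clca4a and Clca4b. The summed level of the goblet list was 998 to 1032 times the 75th percentile in NoRX, 683 to 693 in CM and 843 to 1033 in DIFF. Agr2, Agr3 and Atoh1 of that list were not well above background on any array. The part of other cell types in the Clca values was not tested.

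Genes of the interleukin-4 and interleukin-13 response, the signal that induces Clca1 in airway epithelium, were measured in part. Of 13 tested, 1 rose and 5 fell in CM, and 1 rose and 6 fell in DIFF against NoRX, with medians of -0.12 and -0.32. Of all tested genes 27.7% rose and 26.6% fell in CM, and 15.3% rose and 28.6% fell in DIFF. The receptor chain gene Il4ra fell 1.80-fold in CM (adjusted p = 1.07e-05 by limma) and rose 1.95-fold in DIFF (adjusted p = 1.02e-05). The decoy receptor gene Il13ra2 went the other way, with a rise of 1.38-fold in CM (adjusted p = 0.0166) and a fall of 3.67-fold in DIFF (adjusted p = 4.23e-06), where 1 of 2 arrays was well above background. The CM call for Il13ra2 was lost with the slide row as a block (adjusted p = 0.198), with normexp and without the second CM array, among others. With normexp its DIFF difference of -1.88 shrank to -0.60. Among leukocyte markers, Adgre1 and Lyz2 were not well above background on any array, and Ptprc on none of the NoRX or DIFF arrays. Cd14, also made outside leukocytes, rose 2.01-fold in CM (adjusted p = 6.09e-06). The summed level of the 5 leukocyte markers with a probe was 6.42 to 7.05 times the 75th percentile in NoRX, 12.2 in CM and 4.02 to 5.30 in DIFF. This is the order of the Clca4 genes. The sum mostly follows Cd14 and Csf1r, the only ones of the 5 tested, at log2 levels of 3.06 and 1.94 in CM. The part of leukocytes in the Clca4 values was not tested.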

How the data were processed

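RNA of 8 BMEL samples was measured on 1-colour Agilent arrays. The authors deposited spot intensities from Agilent Feature Extraction 11.0.1.1, a version given in the submitters' processing notes. Per the file headers, the processed signal is a linear intensity with the background of its array subtracted. Values in the deposited table of the series were identical (largest difference 0).

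Here the log2 processed signal was taken minus each array's 75th percentile. Control and outlier spots were left out and spots of 1 probe averaged. Of 55681 probes, 27235 matched a RefSeq accession, and 18395 of these that were well above background on at least 2 arrays were tested. Differences were fitted with limma 3.58.1 in R 4.3.3 (lmFit, eBayes with trend) in a single two-sided fit of the 8 arrays. P-values were adjusted over all tested probes by Benjamini-Hochberg, with a threshold of 0.05. A gene in a list was read on its brightest tested probe. The fit was tested on simulated data. Precision is limited by the number of arrays.

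Members and lists were chosen with earlier results of these data known. Named genes were all members, up to 2 per list, comparison and direction with the largest difference past the threshold, the 5 nearest tested genes on each side of the cluster and the 5 genes most like each member. Slc26a2 in DIFF, Cdh17 in CM, and Alpi, Cdx2, Gpa33, Krt8 and Krt18 were named outside this rule, after their values were seen. Alternatives were median centring, quantile normalization, normexp (with an offset of 50), probe filters, outlier spots kept, array weights, the slide row or replicate number as a block, the DIFF arrays averaged, only the media compared, and each array left out. Normexp used the median pixel signal of each spot and of its local background, where the mean spot signal had been planned. Values within slide row 1 were planned. Spots with uneven background left out, and values within slide row 2, were added after seeing the data. Replicate numbers did not pair the arrays: correlations of deviations from the group means were -0.0508 to 0.174 for the 7 same-numbered pairs and -0.174 to 0.0758 for the 14 others. Promoter windows of the other members are not reported here.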

Additional observations from a re-analysis of the deposited data

How the results depend on the processing

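All 6 measured Clca genes kept the sign of their DIFF differences, and all but Clca3b of their CM difference, under the alternatives run. Where an alternative changed the values compared or the probes tested, the counts of Clca genes without overlap stayed at their reported values, with 1 exception. With probes required to be well above background on all arrays, Clca4b was no longer tested, and 1 Clca gene was higher in CM than in NoRX, 3 were lower in DIFF than in NoRX and 2 lower in DIFF than in CM. The number of probes called in DIFF against NoRX, 7813, was 4202 with array weights and 3691 with the slide row as a block. Both DIFF arrays had a weight of 0.19, and the other arrays 1.35 to 2.40. NoRX and DIFF share no slide row, so with the block their difference rests on the first CM array as the link between rows. What part these played in the lower counts was not tested. With 1 array left out in turn, 8347 to 12131 probes were called in CM against NoRX, 6312 to 10338 in DIFF against NoRX and 9837 to 12416 in DIFF against CM. Under normexp 2 listed genes changed direction with no call, Hnf4g in DIFF against NoRX (0.268) and Dsg3 in DIFF against CM (0.0858), both not well above background in DIFF. With the replicate number as a block, 9309, 6910 and 10301 probes were called in place of 9916, 7813 and 11039. Overlap was read from the array values, which a block, array weights or a fit of only the media compared leave unchanged. The Clca counts could not move under these settings, so they are no check there. Signal over background limits Clca2, with no measured value, and Clca4b in DIFF, where 1 of 2 arrays was measured.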

Other observations

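Genes of enterocytes, the intestinal cells in which Clca4a is known, went different ways. Of 14 tested, 7 rose and 5 fell in CM against NoRX, and 3 rose and 8 fell in DIFF against NoRX, by limma with Benjamini-Hochberg adjustment, beside 27.7% and 26.6% of all tested genes in CM and 15.3% and 28.6% in DIFF. The median differences of the list were 0.72 and -0.84. Fabp1, a fatty acid binding protein that hepatocytes also make, rose 5.35-fold in CM (adjusted p = 2.54e-06) and 5.01-fold in DIFF (adjusted p = 7.34e-06). Apob, the apolipoprotein of chylomicrons and liver lipoproteins, fell 3.15-fold in CM (adjusted p = 2.92e-07). Apoa4, an apolipoprotein of intestine and liver, was at least 17.9-fold higher in DIFF (adjusted p = 1.31e-06), with no NoRX array well above background. The intestinal fatty acid binding protein gene Fabp2 fell 18.5-fold in DIFF (adjusted p = 1.44e-10). Alpi, Cdx2, Cdh17 and Gpa33, well above background on all arrays, rose 2.55-fold, 2.08-fold, 1.89-fold and 2.13-fold in CM. In DIFF they fell 2.54-fold, 2.28-fold, 3.41-fold and 3.12-fold, all past the threshold, the order seen in Clca4a and Clca4b. Alpi, Cdx2, Cdh17 and Gpa33 were picked from the list after their values were seen. Other genes of the list did not have that order, among them Fabp1, Fabp2, Apob and Apoa4. Sis, Dpp4, Slc5a1, Slc15a1 and Reg3b of the list were not well above background in CM or DIFF. The summed level of the enterocyte list was 548 to 572 times the 75th percentile in NoRX, 442 to 447 in CM and 409 to 487 in DIFF.

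Genes of squamous epithelium, in which Clca2 is known, were measured although Clca2 was not. Of 16 tested, 6 rose and 6 fell in CM against NoRX, and 2 rose and 11 fell in DIFF against NoRX, with medians of -0.01 and -0.68, beside the shares of all tested genes given above. The basal keratin gene Krt14 fell 4.33-fold in CM (adjusted p = 6.95e-08 by limma). Lypd3, a surface protein of keratinocytes, rose 6.21-fold in CM (adjusted p = 1.18e-06) and was at least 84.7-fold lower in DIFF (adjusted p = 9.05e-10), where neither array was well above background. Trim29 fell 31.4-fold in DIFF (adjusted p = 1.41e-10), while Ly6d rose 2.51-fold in CM (adjusted p = 1.12e-05) and 3.07-fold in DIFF (adjusted p = 6.2e-06). The summed level of the squamous list was 422 to 436 times the 75th percentile in NoRX, 541 to 560 in CM and 276 to 326 in DIFF.

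Of 5 endothelial genes tested, 1 rose and 1 fell in CM and 1 rose and 1 fell in DIFF, both against NoRX. Of 5 fibroblast and stellate cell genes, 1 rose and 1 fell in CM and 2 fell in DIFF. Of 2 erythroid genes, 1 fell in CM, and 1 rose and 1 fell in DIFF. These counts stand beside 27.7% of all tested genes that rose and 26.6% that fell in CM, and 15.3% and 28.6% in DIFF.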
